A study of Mus musculus with 12 samples.

Results

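Irf7 and 37 further genes of the interferon system are described here in whole mouse eyes over a circadian day. The 38 genes are 7 interferon regulatory factors and Stat2, 9 sensors and nucleic acid binding effectors, 14 other antiviral effectors, 6 genes of the ISG15, ubiquitin and ADP-ribose system, and the peptide transporter Tap1. They are 38 of 32517 gene entries, taken by symbol, and all 38 were among the 15134 genes with enough counts to be tested. The set was chosen by the 24 h rhythm of Irf7, which had the smallest p of all tested genes in a fit over both genotypes. The 24 h rhythm of these genes is therefore given as a description without a p, counts of genes past its threshold included. Nothing is supported with it. Tests of other terms are given for the genotype difference, for the difference in rhythm between genotypes and for 12 h terms. A smallest p also favours a small residual, and the residual of that fit holds the rhythm difference and the 12 h terms. For Irf7, small values of these terms were therefore favoured by the choice. The same residual holds the spread that the genotype test uses as its error, so a small error in that test was favoured too.

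The study compared male mice of 12 weeks in which Nr3c1, the gene of the glucocorticoid receptor, was deleted in the retina (cKO, Cre+) with mice without Cre (WT, Cre-). All mice had 2 weeks of 12 h light and 12 h dark, were then kept in constant darkness without any drug, and gave whole eyes on the second such day, 2, 6, 10, 14, 18 and 22 h into the circadian cycle (CT2 to CT22). CT2 to CT10 are the subjective day and CT14 to CT22 the subjective night. Each of the 12 libraries was made from RNA of 3 mice pooled in equal amounts, with 1 library per genotype and time, so mice cannot be told apart, the 6 times of a genotype stand in for replicates, and the promoter that drives Cre is not named in the labels. The sample fields call the tissue ciliary body and a ciliary epithelial cell line, but the protocols describe whole eyes, and the summed level of 10 rod photoreceptor genes was 40968 to 53089 CPM (counts scaled to library size), that of 9 lens genes 33077 to 59398 CPM and that of 9 cornea and conjunctiva genes 6040 to 9776 CPM. Total counts were 10466253 to 10686868 per library. Nr3c1 itself ran from 55.3 to 76.0 CPM in WT libraries and from 38.8 to 49.5 CPM in cKO libraries, a log2 difference of -0.52 ± 0.06 (SE; adjusted p = 0.0018, edgeR quasi-likelihood test), lower in 6 of 6 times.

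Interferons are secreted proteins that warn neighbouring cells of infection. Sensors of foreign RNA or DNA activate IRF3 and IRF7, which switch on interferon genes. Secreted interferon then acts through its receptors and JAK kinases on a complex that includes STAT2 and IRF9 and binds the interferon-stimulated response element (ISRE) before many antiviral genes. Irf7 is itself such a gene in many cells, where it amplifies the response.

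Irf7 was higher in the subjective night (mean 69.6 CPM) than in the subjective day (mean 33.3 CPM), in both genotypes. In WT it stood at 37.8, 31.8, 37.0, 73.0, 73.9 and 66.4 CPM at CT2, CT6, CT10, CT14, CT18 and CT22. In cKO the values at the same times were 32.5, 28.2, 32.5, 60.4, 79.6 and 64.5 CPM. All 6 night libraries (60.4 to 79.6 CPM) lay above all 6 day libraries (28.2 to 37.8 CPM), with no level between them, and the step up fell between CT10 and CT14 in both genotypes. The counts behind these levels were 296 to 836 per library. A 24 h cosine fitted to both genotypes had an amplitude (the distance from mean to peak) of 0.76 ± 0.04 on the log2 scale, which is a 2.87-fold range from trough to peak, and peaked at CT18.0. By amplitude Irf7 ranked 28 of 15134. Fitted alone, WT gave 0.71 ± 0.06 with the peak at CT17.8 and cKO 0.82 ± 0.06 with the peak at CT18.1. In bulk tissue, fewer cells of a type and less RNA per cell cannot be told apart.

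**Figure D1:**
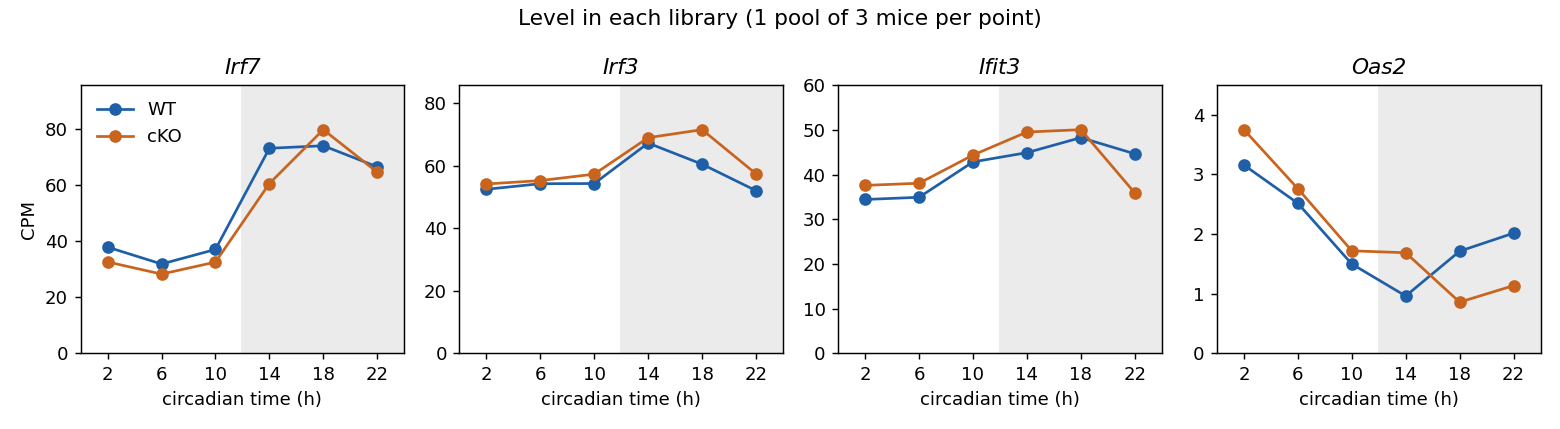
Level in CPM (linear axis from 0) of Irf7, Irf3, Ifit3 and Oas2 against circadian time, 1 point per pool of 3 mice, WT and cKO as separate lines, subjective night shaded. Irf7 is at 28.2 to 37.8 CPM by day and at 60.4 to 79.6 CPM by night, while Oas2 is highest at CT2.

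Irf7 lies on mouse chromosome 7 at chr7:141262706-141266481 on the minus strand (GENCODE M21, GRCm38). Stretches of 250 bases before the RefSeq start (GRCm38.p6) are printed for 4 genes: Irf7, its neighbour Drd4, whose level followed that of Irf7 most closely (below), and the interferon-stimulated genes Ifit3 and Isg15, for comparison of their ISRE letters. The sequences run 5′ to 3′ on the gene's own strand. Capitals mark TGACG, the core of the cyclic AMP response element, in Irf7 (91 bases before the start), and the ISRE letters GAAANNGAAA or their reverse complement in Ifit3 (2 matches) and Isg15 (3 matches that overlap each other). Their places are chr7:141266425-141266674 on the minus strand for Irf7, chr7:141291768-141292017 on the plus strand for Drd4, chr19:34583279-34583528 on the plus strand for Ifit3 and chr4:156200819-156201068 on the minus strand for Isg15.
Irf7: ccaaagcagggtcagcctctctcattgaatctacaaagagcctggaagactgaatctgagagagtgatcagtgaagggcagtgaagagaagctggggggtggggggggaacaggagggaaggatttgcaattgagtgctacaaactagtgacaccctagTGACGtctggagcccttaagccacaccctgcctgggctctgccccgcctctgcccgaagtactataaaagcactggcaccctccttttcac
Drd4: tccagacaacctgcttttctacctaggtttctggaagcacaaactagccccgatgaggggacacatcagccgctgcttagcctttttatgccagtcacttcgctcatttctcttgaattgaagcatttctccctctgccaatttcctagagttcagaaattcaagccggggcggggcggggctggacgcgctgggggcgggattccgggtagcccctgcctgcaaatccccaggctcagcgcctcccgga
Ifit3: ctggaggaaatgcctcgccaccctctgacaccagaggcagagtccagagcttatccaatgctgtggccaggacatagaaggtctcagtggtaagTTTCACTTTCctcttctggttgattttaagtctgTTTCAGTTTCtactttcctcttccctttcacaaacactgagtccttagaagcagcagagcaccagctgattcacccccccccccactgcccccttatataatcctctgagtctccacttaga
Isg15: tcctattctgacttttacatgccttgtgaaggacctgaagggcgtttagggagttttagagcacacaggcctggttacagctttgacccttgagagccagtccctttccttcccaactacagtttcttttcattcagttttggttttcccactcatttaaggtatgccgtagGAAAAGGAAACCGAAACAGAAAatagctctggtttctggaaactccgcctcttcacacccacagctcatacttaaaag

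Both strands were searched for 7 motifs in 32851 such windows. The table held windows for 28 of the 38 genes, and Oas2, Mx1, Mx2, Usp18, Dhx58, Parp9, Parp14, Zbp1, Ifi27 and Rtp4 had none. The ISRE letters were in 2.98% of all windows and in those of 9 genes of the set: Irf2, Stat2, Oas1a, Ifit1, Ifit3, Ifitm2, Rsad2, Bst2 and Isg15. TGACG was in 17.8% of all windows and in those of Irf7, Rsad2 and Tap1. The E-box CACGTG, bound by CLOCK and BMAL1, was in 6.02% of windows and in that of Trim25, and the D-box TTATGNAA, bound by DBP and NFIL3, was in 3.07% and in that of Oas1a. AGGTCA, the core letters of the ROR element searched without its flanking bases, was in 14% of windows (Irf9, Xaf1). TAATCC, bound by the photoreceptor factor CRX, was in 6.25% (Irf9, Oasl2, Ifit3). The glucocorticoid response element GNACANNNTGTNC was in 0.387% of windows and in none of the 28. A match describes letters in this window, and the absence of one says nothing of the factor. Some of these motifs were picked after the printed sequences had been read.

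Among the other regulators, the levels of Irf3 and Stat2 were also highest in night libraries, but with a far smaller range than Irf7. IRF3 is the constitutive partner of IRF7 in switching on interferon genes. Irf3 stood at 52.4, 54.2, 54.3, 67.2, 60.5 and 52.0 CPM in WT and at 54.1, 55.2, 57.3, 68.9, 71.5 and 57.4 CPM in cKO, in the order of times given above. The CT14 and CT18 libraries held the 4 highest levels, while CT22 was at 52.0 and 57.4 CPM, beside 52.4 to 57.3 CPM by day. Its shared amplitude was 0.18 ± 0.03 (log2) with the peak at CT15.5, a 1.29-fold range. Stat2, a subunit of the complex that binds the ISRE, had 34.6, 31.8, 37.9, 36.9, 45.3 and 38.8 CPM in WT and 32.1, 38, 38.4, 40.7, 42.7 and 39.6 CPM in cKO, with the highest level of each genotype at CT18 and night and day levels overlapping. Its amplitude was 0.16 ± 0.04 with the peak at CT16.8.

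Irf9, the DNA-binding subunit of that complex, ran from 19.2 to 27.6 CPM with an amplitude of 0.09 ± 0.04. Irf1, an early-induced activator, ran from 38.7 to 59.4 CPM (0.11 ± 0.06), and Irf2, its antagonist, from 17.9 to 24.2 CPM (0.05 ± 0.04). Irf5 and Irf8, regulators best known from myeloid cells, were low, at 39 to 68 and 28 to 45 counts per library, with amplitudes of 0.05 ± 0.12 and 0.13 ± 0.11. Of the 8 regulators Irf7, whose rhythm chose the set, was the only one whose night and day libraries did not overlap. Of all tested genes, 1.22% had night above day without overlap and 1.1% the reverse.

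Oas2 had the second largest amplitude of the set, with its fitted peak in the subjective day. OAS enzymes make short oligoadenylates on sensing double-stranded RNA, which activate RNase L. Oas2 stood at 3.16, 2.52, 1.5, 0.960, 1.71 and 2.01 CPM in WT and at 3.75, 2.76, 1.72, 1.69, 0.857 and 1.13 CPM in cKO. CT2 was the highest time in each genotype, and the lowest level fell at CT14 in WT and at CT18 in cKO. These levels rest on 9 to 39 counts per library. Its amplitude was 0.74 ± 0.16 with the peak at CT3.6, a 2.79-fold range.

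The remaining sensors and nucleic acid binding effectors had flat or scattered levels. Oas1a, a second OAS enzyme, stood at 1.91, 1.96, 1.5, 1.34, 3.90 and 1.65 CPM in WT and at 2.31, 1.71, 1.91, 2.06, 1.81 and 2.36 CPM in cKO (14 to 41 counts), where the WT CT18 library stood alone at the top. Its amplitude of 0.27 ± 0.16 became 0.17 without that library. Zbp1, a sensor of Z-form nucleic acid, had 1.24, 1.58, 1.31, 0.672, 1.81 and 1.74 CPM in WT and 1.35, 1.90, 1.15, 1.69, 2.10 and 1.99 CPM in cKO (7 to 22 counts), lowest in WT CT14 with no order by time of day, and an amplitude of 0.25 ± 0.16. Dhx58, which encodes the RIG-I-like helicase LGP2, had 4.40, 5.40, 3.56, 3.07, 3.23 and 3.66 CPM in WT and 5.87, 4.28, 3.72, 5.34, 4.29 and 3.40 CPM in cKO, with overlapping day and night levels and an amplitude of 0.20 ± 0.11 peaking at CT4.49. The RNA helicase sensors Ifih1 (MDA5) and Ddx58 (RIG-I) had amplitudes of 0.07 ± 0.07 and 0.05 ± 0.05, the kinase Eif2ak2 (PKR) 0.09 ± 0.06, the editing enzyme Adar 0.05 ± 0.03 and Oasl2 0.07 ± 0.06.

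Ifit3 led the other antiviral effectors. IFIT proteins bind viral RNA and block its translation. Ifit3 stood at 34.4, 34.9, 42.9, 44.9, 48.3 and 44.7 CPM in WT and at 37.6, 38.1, 44.4, 49.6, 50.1 and 35.9 CPM in cKO. Levels were lowest at CT2 and CT6 and highest at CT18 in WT; in cKO CT14 and CT18 were highest and CT22 was the lowest library, so night and day overlapped. The amplitude was 0.24 ± 0.04 with the peak at CT15.5, a 1.39-fold range. Ifit2 and Ifit1, its neighbours on chromosome 19, had 0.12 ± 0.06 with the peak at CT18.1 and 0.10 ± 0.10 with the peak at CT16.9.

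Rsad2, which encodes the radical SAM enzyme viperin, had 1.91, 2.33, 0.749, 1.73, 2.57 and 2.66 CPM in WT and 2.50, 1.81, 1.81, 2.34, 2.10 and 2.08 CPM in cKO (8 to 29 counts), with WT CT10 the lowest library, and an amplitude of 0.31 ± 0.15. Ifi44 stood at 0.957, 1.68, 1.22, 1.06, 1.14 and 1.28 CPM in WT and at 0.866, 1.33, 0.668, 1.69, 1.71 and 0.567 CPM in cKO, on 6 to 18 counts, with an amplitude of 0.18 ± 0.20. Mx2, a dynamin-like GTPase, had 1.05, 1.40, 0.842, 1.15, 1.52 and 0.732 CPM in WT and 1.54, 1.05, 1.62, 1.31, 0.667 and 1.23 CPM in cKO, on 7 to 17 counts, with an amplitude of 0.13 ± 0.18. For Ifi44 and Mx2 the SE exceeded the amplitude, and the libraries followed no order by time. The membrane proteins Ifitm2 and Ifitm3, which restrict virus entry, both had amplitudes of 0.13 ± 0.06 with peaks at CT17.5 and CT18.1, and the other effectors (Mx1, Bst2, Ifi27, Ifi35, Rtp4 and Xaf1) had 0.08 to 0.13.

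The 6 genes of the ISG15 system had a median amplitude of 0.05, beside 0.08 for all tested genes. ISG15 is a ubiquitin-like protein joined to other proteins after interferon exposure, and USP18 removes it. Isg15 stood at 5.84, 6.24, 6.93, 6.53, 7.42 and 7.60 CPM in WT and at 10.8, 8.38, 6.11, 9.74, 7.71 and 7.0 CPM in cKO, with an amplitude of 0.07 ± 0.09, and Usp18 had 0.10 ± 0.12. The ubiquitin ligases Trim25 and Dtx3l and the ADP-ribosyltransferases Parp9 and Parp14 had amplitudes of 0.04, 0.10, 0.04 and 0.02. Tap1, which carries peptides to MHC class I molecules, had 10.1, 12.5, 10.6, 5.47, 11.7 and 10.1 CPM in WT and 9.33, 11.3, 13.3, 10.7, 9.52 and 10.5 CPM in cKO, with WT CT14 far below the other libraries and an amplitude of 0.13 ± 0.10.

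**Figure D2:**
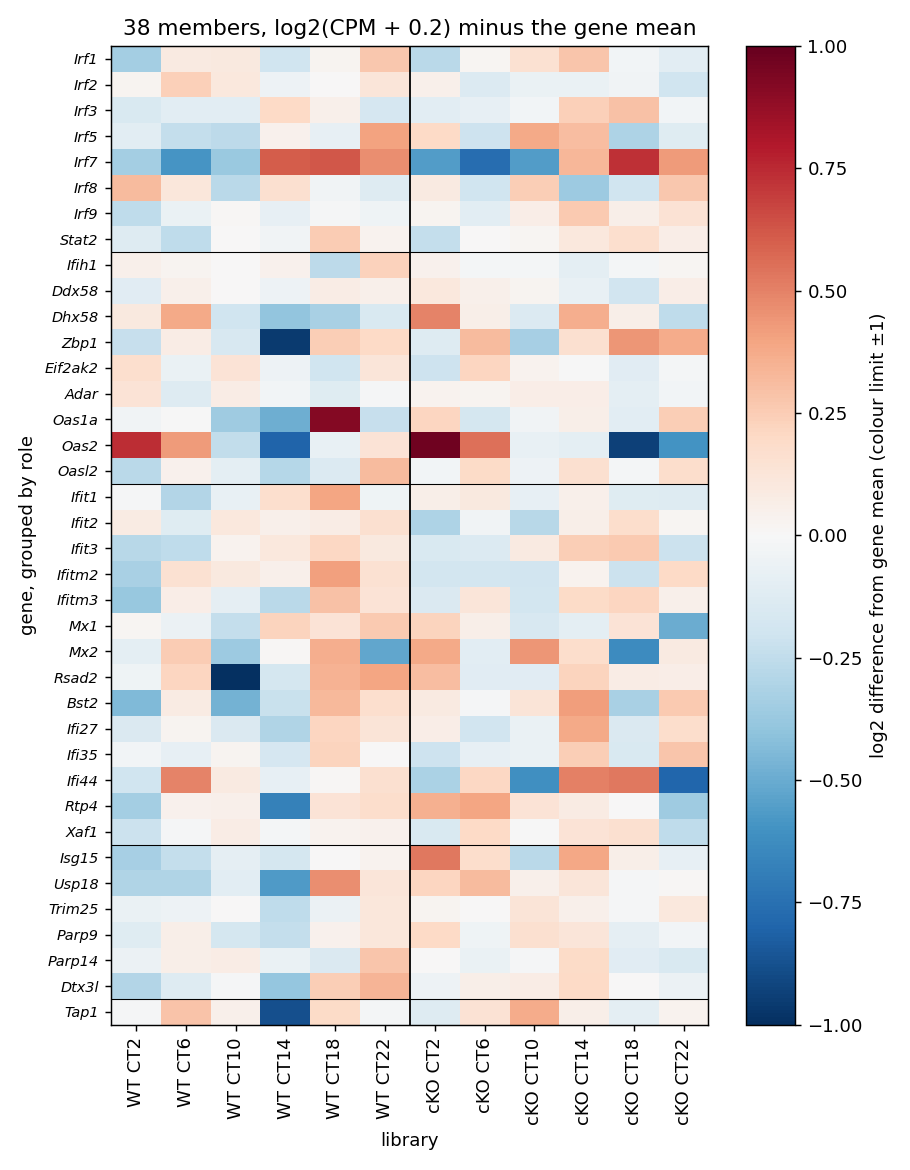
Colour gives log2(CPM + 0.2) minus the mean of each gene for the 38 genes (rows, grouped by role) in the 12 libraries (columns, WT then cKO, by circadian time), with the colour scale cut at 1 either way. Irf7 is the row with a day and a night block in both genotypes (28.2 to 37.8 CPM and 60.4 to 79.6 CPM).

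Over the set, 4 of 38 genes (Irf7, Irf3, Ifit3 and Oas2) passed adjusted p under 0.05 for the shared 24 h rhythm, beside 3.46% of all tested genes, and within each genotype the 1 gene past that threshold was Irf7, beside 0.363% of all genes in WT and 0.152% in cKO. Since Irf7 was chosen by the rhythm in these same 12 libraries, nothing is read from these counts or from those of night and day that follow. Irf7 was also the one gene whose 6 night libraries all exceeded its 6 day libraries, which held for 1.22% of all genes, and no gene of the set had the reverse, which held for 1.1%. The fitted peak lay between CT14 and CT22 in 20 of 38 genes, beside 36.4% of all genes. By night 24 of 38 were higher, beside 7551 of all 15134 tested genes. The median amplitude was 0.11 (0.11 without Irf7) beside 0.08 for all genes, at a median log2 CPM of 3.77 beside 4.68. The median of the night minus day log2 difference was 0.08, beside 0.00 for all genes. Averaged over the 37 genes other than Irf7, the log2 level relative to each gene's own mean ran from -0.19 in WT CT14 to 0.14 in cKO CT14, 2 libraries of the same time of day. By the same measure these libraries were also the lowest (-0.41) and highest (0.18) for the 9 cornea and conjunctiva genes. The part of tissue content in the levels of the set was not tested.

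The levels of the other 37 genes did not run with Irf7 as closely as those of many genes outside the pathway. Over the 12 libraries, Pearson's r of log2 CPM with Irf7 ran from -0.73 (Oas2) to 0.69 (Stat2), and Stat2 ranked 675 of 15123 genes compared. After Stat2 came Ifit2 with 0.67, Irf3 with 0.65 and Ifit3 with 0.63. The 10 genes most like Irf7 had r of 0.976 to 0.935, and none was of the set. They were Drd4 (the dopamine D4 receptor), Txnl4a (a spliceosome protein), Ppp2r1b (a scaffold of protein phosphatase PP2A), Zdhhc5 (a palmitoyltransferase), Sik2 (a salt-inducible kinase), Txndc16, Hspa8 (a constitutive heat shock cognate), Plekhb1, Kif2a (a kinesin) and Manf (a secreted endoplasmic reticulum stress factor). Their shared peaks lay between CT17.7 and CT18.4, with amplitudes of 0.19 to 0.56. These correlations describe 12 libraries that share the 6 times, and are given without a p. The likeness is to a gene chosen by its rhythm, so genes with a similar rhythm come first. Low counts, as in Ifi44 (6 to 18 per library), can also hold r down. Nothing is therefore read from the contrast.

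Drd4 starts 25.5 kb from Irf7 on chromosome 7 (chr7:141292006-141296464, plus strand), a placement looked at after the likeness was seen. Drd4 stood at 147, 132, 142, 257, 236 and 194 CPM in WT and at 122, 121, 134, 204, 230 and 231 CPM in cKO. As with Irf7, all 6 night libraries lay above all 6 day libraries, which held for 1.22% of all tested genes. Drd4 was picked by its likeness to Irf7 in these same libraries, so nothing is read from this. Its amplitude was 0.53 ± 0.05 with the peak at CT17.7, and r with Irf7 was 0.976 (Spearman's rho 0.902). Between both genes lie Cdhr5 (1 to 5 counts per library) and Sct (5 to 13 counts), which were too low to test. Of 16 other annotated genes within 100 kb, the remaining tested ones had smaller amplitudes: 0.06 ± 0.03 for Phrf1, which overlaps the end of Irf7 by 45 bases on the opposite strand, 0.02 ± 0.03 for Deaf1 beside Drd4, and 0.03 to 0.27 for Rnh1, Hras, Lrrc56, Lmntd2, Rassf7, Tmem80 and Eps8l2, whose night and day libraries overlapped.

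**Figure D3:**
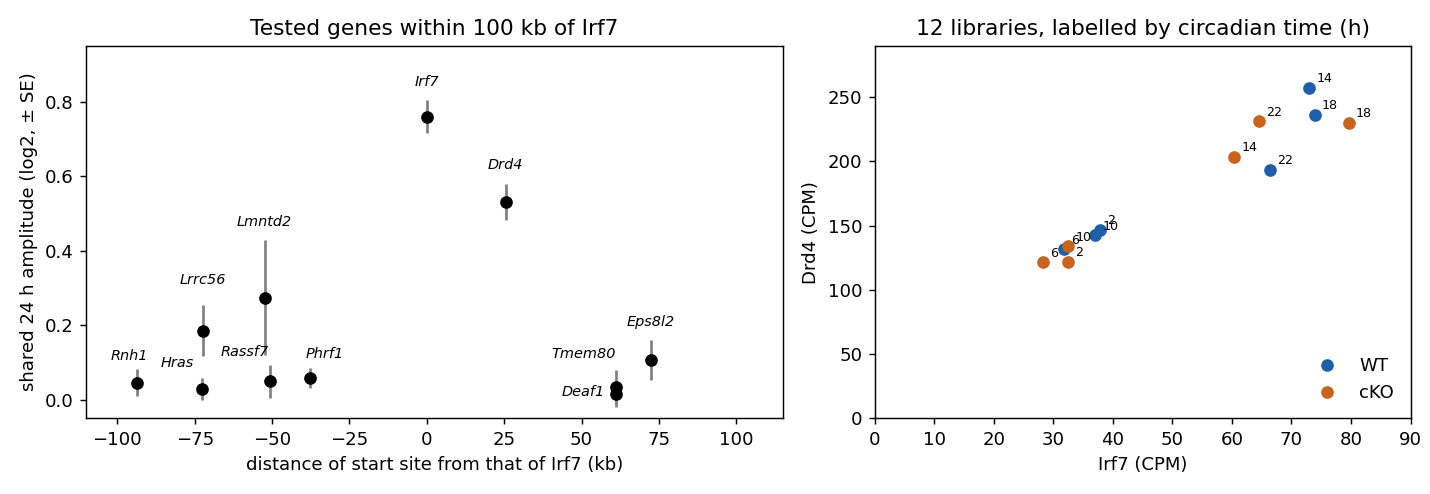
Left, shared 24 h amplitude (log2, bars ± SE) of the tested genes within 100 kb of Irf7 against the distance of their start from that of Irf7 (kb); right, Drd4 against Irf7 (CPM) in the 12 libraries, labelled by circadian time in h. Irf7 (0.76) and Drd4 (0.53) stand above the others, and the 6 day libraries and 6 night libraries form separate groups in the right panel. Irf7 was chosen by its rhythm and Drd4 by its likeness to Irf7.

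The genotype comparison asks whether loss of the receptor in the retina moved the level of these genes. No gene of the set passed it. Pairing the genotypes by time, edgeR called 0 of 38 genes at adjusted p under 0.05 (0.139% of all tested genes, 21), and limma-trend and DESeq2 also called 0. At an unadjusted p under 0.05 there were 7 of 38 (18.4%) by edgeR, beside 5.89% of all genes, 7 by limma-trend and 0 by DESeq2. Without Irf7 there were 6 of 37 by edgeR.

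These 7 pointed in both directions. Irf7 was at a log2 difference (cKO minus WT) of -0.12 ± 0.05 (SE; 95% interval -0.23 to -0.01, unadjusted p = 0.0376, adjusted p = 0.83 by edgeR), lower in 5 of 6 times and higher at CT18. The choice of Irf7 favoured a small error in this test, so nothing is supported with its interval or p. Irf2 was at -0.15 ± 0.07 (lower in 5 of 6) and Ifitm2 at -0.18 ± 0.08 (lower in 4 of 6). Irf3 was at 0.10 ± 0.04 (higher in 6 of 6), Irf9 at 0.15 ± 0.06, Oasl2 at 0.14 ± 0.06 and Trim25 at 0.10 ± 0.05 (each higher in 5 of 6). Their adjusted p lay between 0.81 and 0.85 by edgeR. Isg15 was at 0.28 ± 0.14 (95% interval -0.01 to 0.57), with cKO CT2 at 10.8 CPM beside 5.84 CPM in WT and higher in 4 of 6 times. In all, 25 of 38 genes were higher in cKO and 13 lower, beside 7557 higher and 7577 lower of all 15134 tested genes. The median difference was 0.04, beside 0.00 for all genes. These directions differed between times. Averaged over the 38 genes, the log2 level relative to each gene's own mean was lowest in WT CT14 (-0.16) and highest in cKO CT14 (0.14). At CT18 and CT22 it was higher in WT (0.13 and 0.10) than in cKO (-0.02 at both). How far the CT14 pair carries the excess was not tested.

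Nor did the 24 h rhythm of any of these genes differ between genotypes by test. The size of the difference between the WT and cKO rhythm of Irf7 was 0.13 ± 0.09 on the log2 scale (unadjusted p = 0.35 by edgeR), beside an amplitude of 0.76. The choice of Irf7 by its small p favoured a small difference here, so nothing is supported with this p. By edgeR 0 of 38 genes passed at adjusted p under 0.05 (0.0132% of all genes, 2) and 0 at unadjusted p under 0.05 (2.58% of all genes), and limma-trend and DESeq2 gave 0 at both. The differences with the largest estimates were those of Ifi44 (0.57 ± 0.40) and Oas2 (0.52 ± 0.32), both on fewer than 40 counts per library. With 1 pool per genotype and time and 6 residual degrees of freedom, changes within these errors were not detectable.

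Terms of 12 h, which describe a shape beyond a single daily wave, called 0 of 38 genes at adjusted p under 0.05 by edgeR (0.00661% of all genes, 1), and 0 by limma-trend and DESeq2. At unadjusted p under 0.05 edgeR and limma-trend each found 4 of 38, beside 4.98% of all genes by edgeR, and DESeq2 found 1. The 4 by edgeR were Ifitm3 (12 h amplitude 0.18 ± 0.05), Trim25 (0.09 ± 0.03), Irf3 (0.08 ± 0.03) and Adar (0.08 ± 0.03). For Irf7 the 12 h amplitude was 0.02 ± 0.05, a value that its choice also favoured to be small.

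**Figure D4:**
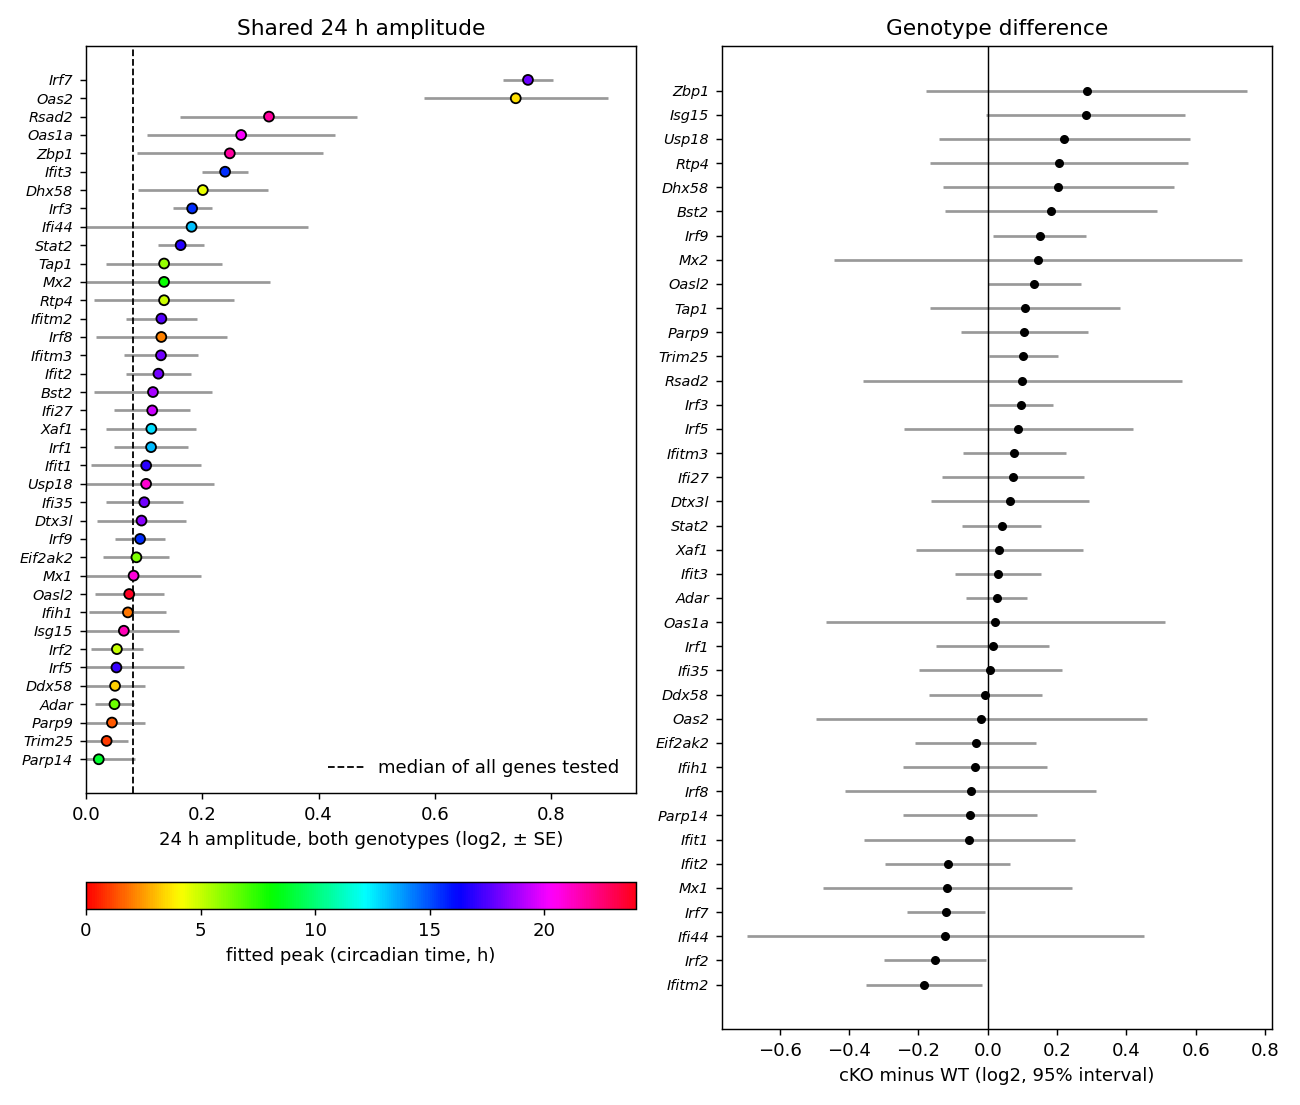
Left, shared 24 h amplitude (log2, bars ± SE) of the 38 genes, coloured by fitted peak time, with the median of all tested genes dashed; right, cKO minus WT difference (log2) with its 95% interval. Irf7 (0.76) and Oas2 (0.74) stand apart on the left, while the differences on the right lie between -0.18 and 0.29.

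Upstream of these genes, interferon transcripts were at or near the limit of detection. All 21 listed interferon genes were in the table and 19 had 0 counts in all 12 libraries, Ifnb1, Ifng and Ifna4 among them, which allows up to 3 counts or 0.275 to 0.289 CPM per library, for counting error only. Ifna13 reached 1 count and Ifnz 7 counts. For the lists that follow, 3.46% of all tested genes passed for the shared 24 h rhythm, so nothing is read from a count of 0. The 6 receptor genes were all tested and 0 passed for the shared 24 h rhythm: Ifnar1 had an amplitude of 0.04 ± 0.04, Ifngr1 0.02 ± 0.04, Ifngr2 0.02 ± 0.05 and Il10rb 0.16 ± 0.06. Of 11 JAK-STAT genes and their inhibitors 1 passed, Stat3 (0.12 ± 0.03, peak at CT19.4, adjusted p = 0.049 by edgeR).

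Beside the lists here, 3.46% of all tested genes passed for rhythm and 0.139% for genotype, and nothing is read from a count of 0. Of 18 listed sensing and signalling genes upstream of IRF3 and IRF7, 14 were tested and 0 passed for rhythm or genotype. Amplitudes were 0.06 ± 0.03 for Traf3, 0.04 ± 0.04 for Irak1, 0.03 ± 0.03 for Mavs and 0.04 ± 0.03 for Tbk1, the 4 most abundant. The largest amplitude of that list, named after its values were seen, was that of Tlr7, an endosomal RNA sensor that signals to IRF7, at 0.69 ± 0.21 with the peak at CT19.3 on 4 to 23 counts per library (adjusted p = 0.15 by edgeR). It was 1.15 ± 0.29 in WT and 0.30 ± 0.27 in cKO, and the rhythm difference, of size 0.86 ± 0.40, did not pass (adjusted p = 1.00, unadjusted p = 0.13 by edgeR). Of 77 further interferon-stimulated genes 64 were tested and 0 passed for rhythm or genotype, with a median amplitude of 0.12. Ifitm1 came nearest by genotype, with means of 116 CPM (WT) and 135 CPM (cKO), a difference of 0.22 ± 0.04 (adjusted p = 0.0596 by edgeR), while the abundant Tdrd7, Trafd1 and Ly6e were at 0.09 ± 0.04, 0.02 ± 0.04 and 0.03 ± 0.05. Of 18 antigen presentation genes 0 passed, with H2-D1, B2m, Tapbp and H2-K1 at amplitudes of 0.04, 0.16, 0.07 and 0.08. Of 20 core clock genes 11 passed, among them Dbp (0.35 ± 0.03, peak at CT10.4), Nr1d2 (0.19 ± 0.02, CT14.8), Per1 (0.31 ± 0.04, CT13.3) and Per2 (0.33 ± 0.05, CT14.3).

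The levels of immune cell markers differed between libraries. The summed level of 17 macrophage and microglia genes was 213 to 304 CPM by day and 242 to 371 CPM by night, which overlap. This sum was lowest in WT CT2 and highest in WT CT22. With each gene weighted equally (mean log2 level relative to each gene's own mean), WT CT18 was highest (0.37, beside 0.21 in WT CT22). Of the 17 genes, 12 had fitted peaks between CT14 and CT22, beside 36.4% of all tested genes, and 0 passed for rhythm, beside 3.46%. By night 14 of the 17 were higher, beside 7551 of all 15134 tested genes. Lyz2 was the most abundant (800 to 1960 counts). The 6 tested of 9 dendritic cell genes summed to 86.6 to 103 CPM by day and 101 to 109 CPM by night, 5 of the 6 were higher by night and 0 passed for rhythm; most of this sum was Tcf4 (792 to 1032 counts), while Siglech reached 29 counts. The 8 genes of stroma and sclera ran from 674 to 1227 CPM by day and from 864 to 1568 CPM by night. The 4 tested of 11 T and NK cell genes summed to 4.84 to 7.86 CPM by day and 3.46 to 7.21 CPM by night, with at most 33 counts for a gene and 1 for Cd3e. The 2 tested of 8 neutrophil genes summed to 2.15 to 6.57 CPM by day and 2.06 to 5.96 CPM by night. Of 6 B and plasma cell genes 2 were tested, summing to 8.13 to 11.3 CPM by day and 4.39 to 10.2 CPM by night, and Jchain passed for rhythm with its peak at CT9.37. The 5 tested of 6 red blood cell genes summed to 173 to 242 CPM by day and 116 to 506 CPM by night. Their lowest library was cKO CT18 and their highest WT CT18, which was also the highest for stroma and sclera and for the 14 other antiviral effectors of the set. The part of any of these cells in the levels of Irf7 and Ifit3 was not tested. Without the WT CT18 library the amplitude of Irf7 was 0.82 and its genotype difference -0.18.

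Counts of near-identical copies cannot be told apart with certainty, which concerns Ifit3, Oas1a, Ifitm2, Ifitm3, Mx1 and Mx2. Whether counting used strand is not stated, so reads of Irf3 and Bcl2l12, which overlap by 1065 bases on opposite strands, of Adar and Chrnb2, of Parp9 and Dtx3l, and of Oas2 and Gm43068 cannot be told apart within the overlap.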

How the data were processed

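Gene expression in whole eyes was measured by RNA sequencing of 12 libraries, 6 WT and 6 cKO, 1 per circadian time and each from 3 pooled mice, per the labels' protocols. The authors deposited 1 table of raw counts, whole reads per gene symbol and library, for 32544 entries; the aligner, counter, genome build and annotation were not given in the sources used here. A median of 0.158% of counts lay in 27 entries whose symbols had become dates, which were left out of totals and tests, leaving 32517. Total counts were 10466253 to 10686868, a spread of 2.11%.

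From these counts CPM were computed with TMM factors, and genes passing edgeR's filterByExpr (minimum count 10, minimum total 15) were tested, 15134 in all. With R 4.3.3 and edgeR 4.0.16, quasi-likelihood tests were made of genotype with 1 level per time in the model, of the rhythm difference, of 12 h terms and of the shared 24 h rhythm (5, 6, 6 and 8 residual degrees of freedom), with Benjamini-Hochberg adjustment over all tested genes and a threshold of 0.05. The biological coefficient of variation was 6.06%. limma 3.58.1 (prior count 2), DESeq2 1.42.0, other size factors, no filter and left-out libraries were alternatives. The scripts were tested on simulated data. As 1 library stands for each genotype and time, p-values measure the spread around the fitted time course, between pools.

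The members, gene lists and tests were chosen with earlier results of these data known. Named genes were Irf7, members past a test, the 12 members of largest amplitude, up to 4 genes per further list (those past the rhythm or genotype test, otherwise the most abundant), the 10 genes most like Irf7 (Pearson's r of log2 CPM, average log2 CPM at least 0) and Nr3c1. Cell markers given by their counts, Tlr7 and the neighbours of Irf7 were picked after their values were seen. Some results are not reported here. Motif windows and gene places come from RefSeq GRCm38.p6 and GENCODE M21, used for names and places only. Libraries share no replicate numbers in the labels; circadian time pairs the genotypes.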

Additional observations from a re-analysis of the deposited data

Results flagged for a closer look

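In 76 groups of 6 libraries (38 genes in WT and in cKO), the highest or lowest library was checked for its gap to the nearest other library; chance gives about 1 such gap in 20 groups, and 3 were found, all in WT. Oas1a stood at 3.90 CPM in WT CT18, beside 1.96 CPM in the next library. Xaf1, an apoptosis-promoting protein, stood at 5.17 CPM in WT CT2, beside 5.95 CPM in the next lowest. Tap1 stood at 5.47 CPM in WT CT14, beside 10.1 CPM in the next lowest. The times of a genotype are not true replicates, so a gap can also be a change with time, and the cause was not tested.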

How the results depend on the processing

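The amplitude of Irf7, which chose the set, was 0.71 to 0.82 over 14 alternatives, given as a description only, as are the rhythm calls of members here. Leaving out both libraries of CT18 ended the calls of Irf3 (0.17), Ifit3 (0.22) and Oas2 (0.77), leaving 1 member past the shared rhythm test; over all left-out libraries there were 1 to 4. Irf3 was also lost without CT14 (0.15), and Oas2 without CT2, CT6, CT10 or CT14 (0.56 to 0.85), while Stat2 gained a call without CT14 (0.21). Within WT 1 member and 55 genes passed, and within cKO 1 and 23; over left-out libraries 217 to 407 genes passed. Members past the genotype, rhythm difference and 12 h tests were 0 under all alternatives run. Genes past the genotype test were 51 without a filter, 3 with no time term and 5 to 26 over left-out libraries. Genes past the rhythm difference test were 7 without a filter, 5 by DESeq2, 8 with time as a factor and 0 to 4 over left-out libraries. Genes past the 12 h test were 8 without a filter, 0 by limma-trend, 2 by DESeq2 and 1 to 33 over left-out libraries. No value of a member reversed while called. With 300 bases per window the ISRE letters were in 3.44% of windows and 13 members, and TGACG in 20.8% and 5. The labels give no replicate numbers; circadian time pairs the genotypes, and the fit without that pairing is the one with no time term. The cause of these changes was not tested. Oas2 had 9 to 39 counts per library, and no test of depth was made.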
